A study of Mus musculus with 4 samples.

Results

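Parathyroid hormone (Pth) differed between the 4 arrays by more than Gcm2, Casr, Tg, Slc5a5, Iyd or Pax8, while Tshr was not well above background. Together these are 8 genes of the parathyroid and thyroid glands: Pth, Gcm2 and Casr for the parathyroid, and Tg, Tshr, Slc5a5, Iyd and Pax8 for the thyroid. All were found by the gene name in the scanner files, and they are read by 9 probes out of 39429, or 8 genes out of 28663. Pth was chosen by its differences between these same arrays, and the others were added as genes of the same glands. All values of Pth are therefore a description.

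The arrays were hybridised with RNA from bronchial epithelial cells isolated from mouse lungs in an ovalbumin (OVA) model of allergic asthma. The 4 groups, with 1 single-colour array each, were challenged mice labelled Pla2g3-/-, challenged wild-type mice (Pla2g3+/+), control mice labelled Pla2g3-/- and control wild-type mice. Per the labels, mice received 10 µg OVA with 1.3 mg alum in 0.2 ml on days 0 and 14, then a 1% OVA aerosol for 30 min per day on days 26, 27 and 28. Lungs were harvested 3 h after the last challenge. Each array holds RNA pooled from 4 samples. Strain, age, sex, the deleted part of Pla2g3, and the handling of the control mice are not given in the sources used here. With 1 array per group there is no replicate check and no test. A ± below is the scanner's own error of the spots compared, which leaves out the spread between mice.

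The parathyroid glands release parathyroid hormone when blood calcium falls, and the hormone raises it by acting on bone and kidney. The thyroid takes up iodide, binds it to thyroglobulin in the follicle and releases thyroid hormones from it under the control of thyrotropin. In the mouse both glands lie beside the trachea, near the upper airway, and some parathyroid hormone is also made in the thymus. Neither gland is part of the bronchial epithelium.

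The probes are shown because each gene's value rests on 1 spot of 1 probe per array, except Tshr with 2 probes. Each probe has 60 bases. The first 30 are printed, except for Tg and the first Tshr probe, which are printed whole. The sequences are as deposited in the scanner files, 5′ to 3′.
Pth: actgacatatgctgctaccttttcaagctt
Gcm2: acagcattttgaaacctgcccacaccacac
Casr: agaaactgcttctgttgtaatagtccatgg
Tg: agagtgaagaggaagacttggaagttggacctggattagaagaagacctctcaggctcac
Tshr, first probe: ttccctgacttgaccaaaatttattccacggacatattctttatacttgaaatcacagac
Tshr, second probe: gagccagatcctaactattcatctaaatta
Slc5a5: ggcaactgagaacactcagcttctccagac
Iyd: tctagaactttcagcccagtaagttatttt
Pax8: ccagtctttggtctctgaaatatctcccta

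In the mm9 build the files place the Pth probe at chr7:120529242-120529301 on the minus strand and the Tg probe at chr15:66682078-66682137 on the plus strand. The Gcm2 probe lies at chr13:41197893-41197950, the Casr probe at chr16:36493783-36493842, the Slc5a5 probe at chr8:73407495-73407554, the Iyd probe at chr10:6792120-6792179 and the Pax8 probe at chr2:24276147-24276206, all on the minus strand. The second Tshr probe lies at chr12:92778221-92778280 on the plus strand, and the first has no position in the files. The probes have between 35% and 48.3% G and C bases, with Tg and Slc5a5 at the upper end. No annotation of that build was used here, so exon and UTR are not stated.

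The arrays were close in overall brightness. The 75th percentile of the processed signal was 1979 and 1808 intensity units on the challenged arrays labelled Pla2g3-/- and wild type, and 1834 and 1986 units on the control arrays labelled Pla2g3-/- and wild type. From 78.7% to 81.5% of probes read well above background. Airway genes were bright on all 4 arrays, with Scgb1a1, the club cell secretoglobin, at log2 levels between 7.67 and 7.89. All log2 levels are relative to the array's 75th percentile. The targeted gene went against the labels: the brighter Pla2g3 probe read 4154 units on the challenged array labelled Pla2g3-/- against 254 on the challenged wild-type array, and 2023 units on the control array labelled Pla2g3-/- against 239 on the wild-type control array. Genotypes are therefore given as labelled throughout.

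Pth was read above background on every array. Its signal was 148 units on the challenged array labelled Pla2g3-/-, 45.9 units on the challenged wild-type array, 375 units on the control array labelled Pla2g3-/- and 1754 units on the wild-type control array. The log2 levels were -3.75, -5.30, -2.29 and -0.18 in that order of arrays, a range of 5.12. The wild-type control array stood highest and the challenged wild-type array lowest, with both arrays labelled Pla2g3-/- in between. Only the wild-type control array came near the array's 75th percentile.

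In cells labelled Pla2g3-/- the challenged array was 2.74-fold lower than the control array for Pth, a log2 difference of -1.46 ± 0.21. In wild type the challenged array was 34.8-fold lower than the control array, at -5.12 ± 0.21, or -4.00 with normexp background correction. Both challenge differences thus point down, and they differ by 3.67 ± 0.30 on the log2 scale. The genotype differences point opposite ways. Under challenge, the array labelled Pla2g3-/- was 2.94-fold higher than wild type, at 1.56 ± 0.21. Without challenge it was 4.32-fold lower than wild type, at -2.11 ± 0.20. The difference under challenge was 0.85 with normexp background correction, which is under 2-fold.

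**Figure D1:**
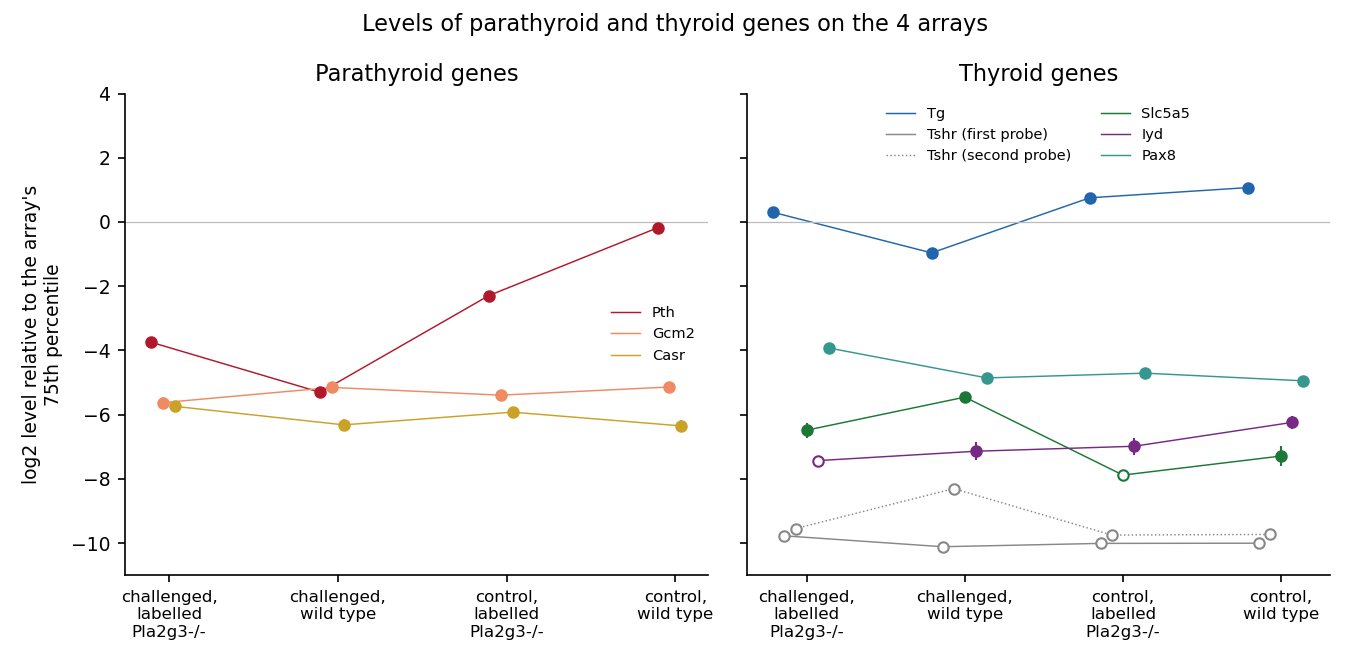
Log2 level of each member on the 4 arrays, relative to the array's 75th percentile, with 1 array per group the scanner error of the spot as the bar, and open points where the probe was not well above background. Pth spans 5.12 and Tg spans 2.03 on the log2 scale, and both stand highest on the wild-type control array and lowest on the challenged wild-type array.

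The other parathyroid genes did not vary in this way. Gcm2 encodes the transcription factor on which parathyroid development depends. It read 40.2 and 50.9 units on the challenged arrays labelled Pla2g3-/- and wild type, and 43.7 and 56.5 units on the control arrays labelled Pla2g3-/- and wild type. Its log2 levels ran from -5.62 to -5.14, a range of 0.49, and the challenged and control wild-type arrays were level.

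Casr encodes the calcium-sensing receptor through which parathyroid cells read blood calcium, and it is also present in other tissues. It read 37.1 units on the challenged array labelled Pla2g3-/-, 22.7 on the challenged wild-type array, 30.3 on the control array labelled Pla2g3-/- and 24.4 on the wild-type control array. The range was 0.61 on the log2 scale, with both arrays labelled Pla2g3-/- above both wild-type arrays. The challenge difference in wild type was -0.01 ± 0.22 for Gcm2 and 0.03 ± 0.27 for Casr, beside -5.12 for Pth. The genotype difference without challenge was -0.25 ± 0.22 for Gcm2 and 0.43 ± 0.26 for Casr, beside -2.11 for Pth. Challenge in cells labelled Pla2g3-/- gave -0.23 ± 0.23 for Gcm2 and 0.18 ± 0.25 for Casr, and genotype under challenge gave -0.47 ± 0.23 for Gcm2 and 0.58 ± 0.25 for Casr. None of these reached 2-fold, and under challenge Gcm2 differed in the opposite direction to Pth.

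Among probes printed 10 times on each array, those below a log2 level of -5 had a median SD of 0.33 for a difference between arrays, against 0.12 between -5 and -2 and 0.08 above -2. Gcm2, Casr, Slc5a5, Iyd and the challenged wild-type value of Pth all lie below -5. The 95th percentile of that SD below -5 was 1.06, so differences of about the 2-fold limit, such as Slc5a5 at -1.03 and Iyd at -0.90, can lie within the spread of repeated spots.

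Tg, which encodes thyroglobulin, the protein on which thyroid hormones are built, was the brightest member. It read 2435 units on the challenged array labelled Pla2g3-/-, 929 on the challenged wild-type array, 3092 on the control array labelled Pla2g3-/- and 4172 on the wild-type control array. The log2 levels were 0.30, -0.96, 0.75 and 1.07, so Tg lay above the 75th percentile on 3 of 4 arrays. The order of the arrays was the order seen for Pth.

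The challenge difference of Tg in cells labelled Pla2g3-/- was -0.45 ± 0.20. In wild type it was -2.03 ± 0.20, which is 4.09-fold lower. Under challenge the difference between the array labelled Pla2g3-/- and wild type was 1.26 ± 0.20, or 2.40-fold higher, and without challenge it was -0.32 ± 0.20. The 2 challenge differences of Tg differ by 1.58 ± 0.29, beside 3.67 for Pth. The sign was the same as for Pth in each of the 4 comparisons, while the size was smaller in each. These comparisons share arrays, so the signs are not separate observations.

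The size of the gap shows in the signal as a share of the wild-type control array. Pth held 8.44% on the challenged array labelled Pla2g3-/-, 2.87% on the challenged wild-type array and 23.2% on the control array labelled Pla2g3-/-. Tg held 58.6%, 24.5% and 80.3% on the same arrays. Gcm2 held 71.4%, 99.1% and 83.9%, and Casr 152%, 102% and 135%. Pth was thus at a lower share than Tg and Gcm2 on each of the 3 arrays.

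**Figure D2:**
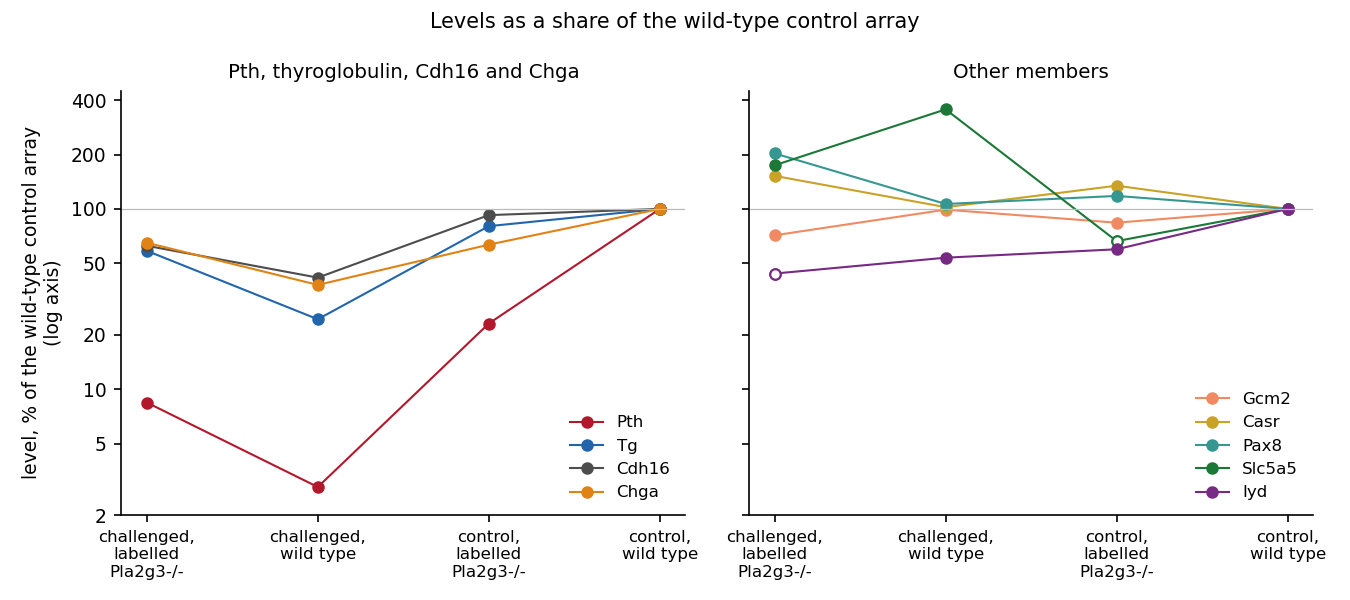
Signal of each gene as a percent of its signal on the wild-type control array, on a log axis, with 1 array per point and open points where the probe was not well above background. Pth stands at 2.87% on the challenged wild-type array, where Tg holds 24.5% and Gcm2 99.1%.

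Slc5a5, the sodium iodide symporter that brings iodide into thyroid cells, ran another way. It read 22.2 units on the challenged array labelled Pla2g3-/-, 41.3 on the challenged wild-type array, 7.80 on the control array labelled Pla2g3-/-, a reading not well above background, and 12.7 units on the wild-type control array. The challenged wild-type array, where Pth and Tg were lowest, was the highest for Slc5a5. Its challenge difference was at least 1.22 on the log2 scale in cells labelled Pla2g3-/-, and 1.83 ± 0.35, or 3.56-fold higher, in wild type. Under challenge, the array labelled Pla2g3-/- was 2.04-fold lower than wild type, at -1.03 ± 0.28. Without challenge the log2 difference was -0.42 or lower, a bound. With normexp correction each of these was under 2-fold, at 0.15 for challenge in cells labelled Pla2g3-/-, 0.55 for challenge in wild type and -0.42 for genotype under challenge.

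Iyd encodes the deiodinase that recovers iodide from iodotyrosines. It read 11.5 units on the challenged array labelled Pla2g3-/-, a reading not well above background, 12.9 units on the challenged wild-type array, 14.5 on the control array labelled Pla2g3-/- and 26.3 on the wild-type control array. The wild-type control array was highest, as for Pth and Tg. The other arrays lay close together near the limit of detection. Its challenge difference in wild type was -0.90 ± 0.34 and its genotype difference without challenge -0.74 ± 0.33, both under 2-fold. Against the challenged array labelled Pla2g3-/- only bounds could be had, at -0.45 or lower for challenge and -0.29 or lower for genotype.

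Pax8, a transcription factor of thyroid follicular cells that is also used in kidney, read 131 units on the challenged array labelled Pla2g3-/-, 62.5 on the challenged wild-type array, 70.3 on the control array labelled Pla2g3-/- and 64.5 on the wild-type control array. One array stood apart, the challenged one labelled Pla2g3-/-, and the others lay close together. The difference under challenge was 0.93 ± 0.21 between the array labelled Pla2g3-/- and wild type, and the challenge difference was 0.78 ± 0.21 in cells labelled Pla2g3-/- and 0.09 ± 0.21 in wild type. Without challenge the genotype difference was 0.24 ± 0.21.

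Tshr, the thyrotropin receptor, was not well above background with either probe on any array. The first probe read between 1.64 and 2.27 units and the second between 2.14 and 5.74 units, so no difference is given.

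Counted over the 9 member probes, 7 had a value in each comparison. For challenge in wild type, 1 was at least 2-fold higher (Slc5a5) and 2 at least 2-fold lower (Pth and Tg), where 1.79% and 1.6% of all probes were. For challenge in cells labelled Pla2g3-/-, 1 was higher (Slc5a5, a bound) and 1 lower (Pth), where 3.68% and 3.21% of all probes were. For genotype without challenge, 0 were higher and 1 lower (Pth), where 3.13% and 1.84% of all probes were. For genotype under challenge, 2 were higher (Pth and Tg) and 1 lower (Slc5a5), where 3.7% and 2.45% of all probes were. Since Pth was chosen for these differences, nothing is read from the shares.

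The medians of the member differences were -0.01, -0.23, -0.32 and 0.58 in the same order of comparisons, beside -0.03, -0.06, -0.03 and -0.05 over all genes. Just past the 2-fold limit, and so called, lay Slc5a5 at -1.03, its bound of 1.22 and Tg at 1.26. Just short of it, and not called, lay Pax8 at 0.93 and Iyd at -0.90. The 8 genes therefore did not move as a block.

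**Figure D3:**
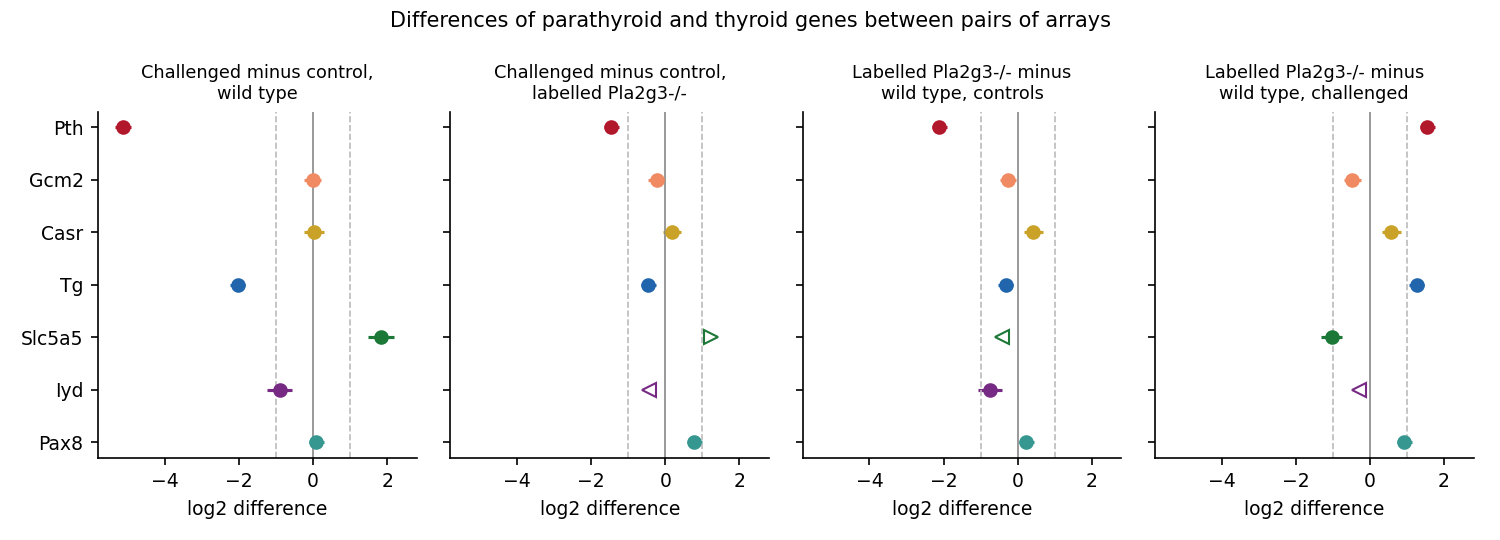
Log2 difference of each member in the 4 comparisons, with the scanner error as the bar, dashed lines at the 2-fold limits and open triangles for bounds. Pth and Tg share the sign in every panel, while Slc5a5 stands on the other side of 0 in both challenge panels and for genotype under challenge.

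Of the other thyroid follicular genes reported here, Cdh16, a cadherin of thyroid and kidney, followed the order of the arrays seen for Tg. It had log2 levels of -4.58 and -5.17 on the challenged arrays labelled Pla2g3-/- and wild type, and -4.02 and -3.90 on the control arrays labelled Pla2g3-/- and wild type. The control arrays were thus close to level for Cdh16. Its share of the wild-type control level was 62.5%, 41.6% and 92.4% on the other 3 arrays, beside 58.6%, 24.5% and 80.3% for Tg. For challenge in wild type it was at least 2-fold lower, at -1.27 ± 0.21. With normexp correction this was -0.74.

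Slc26a4, the anion exchanger pendrin, serves the thyroid but is also an airway epithelial gene. It was higher on the challenged arrays by 4.19 (labelled Pla2g3-/-) and 4.62 (wild type) on the log2 scale, the reverse of Tg. The array labelled Pla2g3-/- differed from wild type for Slc26a4 by -3.97 under challenge and -3.54 without it. Tff3, a trefoil peptide, differed by 2.62 between the array labelled Pla2g3-/- and wild type without challenge. Duoxa2, the maturation factor of an oxidase of thyroid and airway, differed by 1.40 under challenge, and Slc26a7, an anion transporter, by -1.25.

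Over the list of other thyroid follicular genes, 15 had a value for challenge in wild type, of which 1 was at least 2-fold higher and 1 lower, with a median of -0.23. Over all genes 1.81% were higher and 1.68% lower. For challenge in cells labelled Pla2g3-/-, 1 was higher and 1 lower of 15, with a median of -0.21, where 3.87% and 3.42% of all genes were. For genotype without challenge, 1 was higher and 1 lower of 15, with a median of -0.03, where 3.19% and 1.8% of all genes were. For genotype under challenge, 1 was higher and 2 lower of 14, with a median of 0.05, where 3.84% and 2.48% of all genes were. Of the 15 genes, 7 were highest on the wild-type control array and 7 lowest on the challenged wild-type array. The shares of all genes highest or lowest on an array were not computed, so nothing is read from such counts here or below. The summed level of the list was 7.13 and 11.3 times the 75th percentile on the challenged arrays labelled Pla2g3-/- and wild type, and 8.45 and 8.84 times on the control arrays labelled Pla2g3-/- and wild type. Slc26a4 alone made the challenged wild-type array the highest. Without it the sums were 6.89 and 7.63 times on the challenged arrays labelled Pla2g3-/- and wild type, and 8.43 and 8.69 times on the control arrays labelled Pla2g3-/- and wild type.

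The list of other parathyroid genes had 14 genes with a value. Chga, the chromogranin that parathyroid and other endocrine cells store in their granules, was the only one at least 2-fold different for challenge in wild type, at -1.40 ± 0.20. It was also on the list of pulmonary neuroendocrine cells. There 2 of 8 genes, Chga and Grp, were at least 2-fold lower in that comparison, where 1.68% of all genes were. Grp was dim, at log2 levels of -6.62 on the challenged and -5.19 on the control wild-type array. The log2 levels of Chga were 0.13 and -0.64 on the challenged arrays labelled Pla2g3-/- and wild type, and 0.10 and 0.76 on the control arrays labelled Pla2g3-/- and wild type. The highest and the lowest array were those of Pth, but the arrays labelled Pla2g3-/- were level. Gata3, a transcription factor needed for the parathyroid and for T cells, was the only other one called, at 3.08 for genotype without challenge and -2.35 for challenge in cells labelled Pla2g3-/-. None was called for genotype under challenge. From 1.68% to 3.87% of all genes were called per direction and comparison, so nothing is read from these counts. The medians of the list were 0.07, 0.02, 0.05 and 0.11 in the 4 comparisons, and its summed level was 53.8 and 55.3 times the 75th percentile on the challenged arrays labelled Pla2g3-/- and wild type against 52.4 and 53.1 times on the control arrays labelled Pla2g3-/- and wild type. Eya1, Ccnd1 and Tbx1, which were bright on every array, carry most of that sum. The other 12 genes summed to 11.2 and 11.3 times on the challenged arrays labelled Pla2g3-/- and wild type, and to 12.3 and 11.6 times on the control arrays labelled Pla2g3-/- and wild type.

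Thyroid C cells, which make calcitonin, were represented by 7 genes with a value. None was called in either challenge comparison. Cckbr, the gastrin receptor, differed by -1.21 for genotype without challenge, and Calcb, a calcitonin-related peptide gene, by 1.17 under challenge. Among the hormone's relatives and receptors, 3 genes had a value. Pth1r, the shared receptor of Pth and Pthlh, was higher by 1.00 for challenge in cells labelled Pla2g3-/-, and no other was called. Pthlh, which encodes the related peptide that many epithelia make, had a challenge difference of 0.24 where cells were labelled Pla2g3-/- and of -0.81 in wild type.

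**Figure D4:**
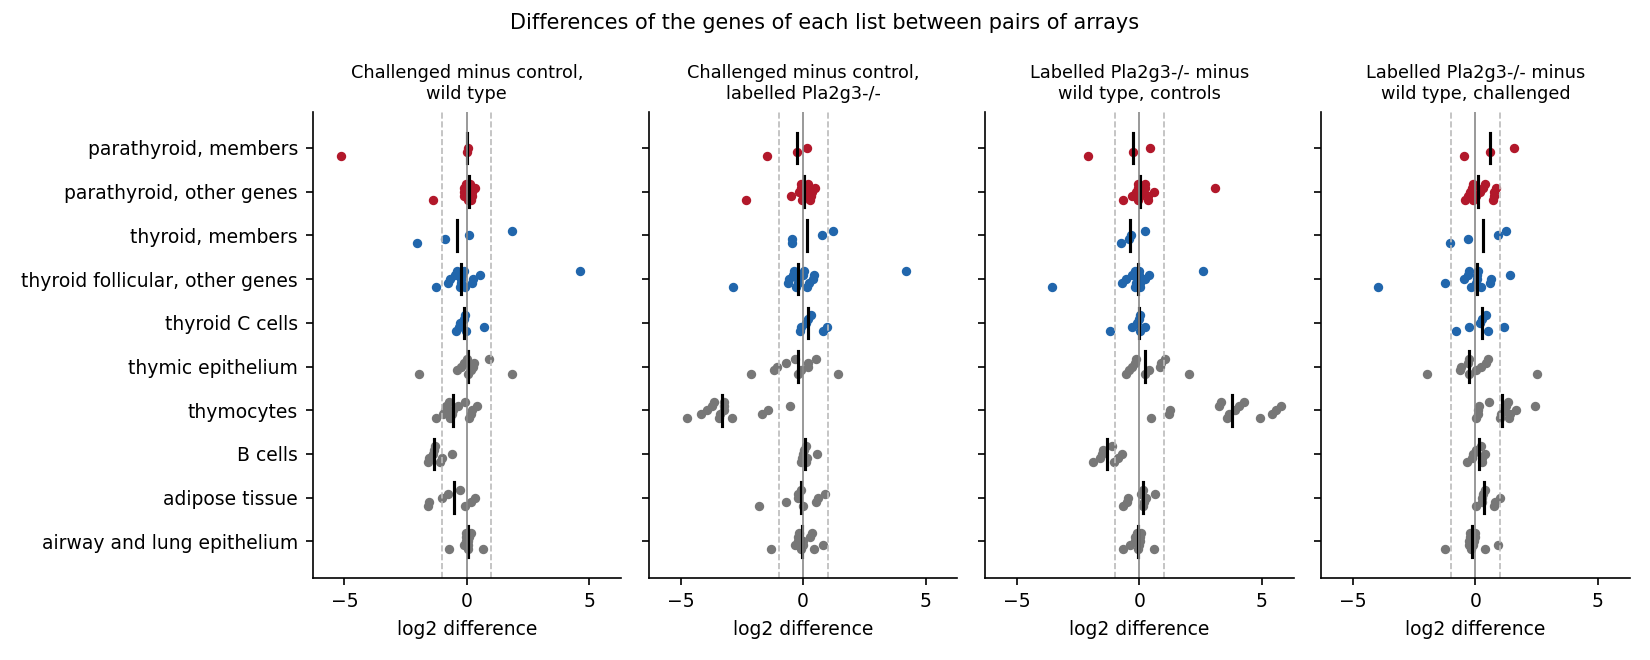
Log2 difference of each gene of 10 lists in the 4 comparisons, with 1 point per gene, a black line at the median of the list, a grey line at 0 and dashed lines at the 2-fold limits. The other parathyroid genes keep medians of 0.07, 0.02, 0.05 and 0.11, while Pth, the outlying point of the parathyroid members for challenge in wild type, is at -5.12 and the thymocyte genes have a median of 3.77 for genotype without challenge.

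The order of arrays seen for Pth (highest on wild-type control, then control labelled Pla2g3-/-, then challenged labelled Pla2g3-/-, lowest on challenged wild type) was held by 732 of 22234 genes well above background on all arrays, or 3.29%. Among the 2612 of these that span at least 1 on the log2 scale, 46 held it, or 1.76%. Tg was the only other member measured on all arrays with this order. Of the 13 other thyroid follicular genes measured on all arrays 1 held it, Cdh16, and of the 14 other parathyroid genes 0 did. The order of Pth, Tg and Cdh16 was the same with normexp, with quantile normalisation and in the authors' deposited matrix, which holds the same signal. For Cdh16 the control arrays were close to level. Their genotype difference was -0.11 in the matrix and -0.07 with normexp, so its order rests on a small gap.

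Likeness to Pth was measured as the root mean square difference between levels centred on their own mean over the 4 arrays, for the 16438 genes well above background on all arrays whose symbol is not a clone or prediction name. A flat profile gives 1.89. The 10 nearest genes were Gpr174, Pdk4, Slc28a2b, Pde5a, Tg, Angptl4, Fcrl1, Hspa1a, Ms4a4b and Tnfrsf13c, at 1.11 to 1.26. Pdk4 is a kinase that restrains glucose oxidation, Pde5a a phosphodiesterase of cyclic GMP, Fcrl1 a B cell receptor and Hspa1a a heat shock protein. Tg was the fifth at 1.21. The measure is not scaled for range, so it cannot be turned round. By likeness to Tg, Pth ranked 16101 of 16438 at the same 1.21, beyond a flat profile at 0.77. A flat profile lay 1.89 from Pth and 0.77 from Tg, and that gap in size alone sets this rank. The rank therefore does not show whether the patterns of Pth and Tg are alike. Against Pth, Gcm2 at 1.86 was near the flat profile, and Casr at 1.95 and Pax8 at 2.05 lay beyond it. No gene of the 10 had the range of Pth, since theirs ran from 1.73 to 2.33 against 5.12. With 4 arrays this is a description.

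Markers of other tissues also differed between the arrays. The thymocyte list summed to 6.40 and 4.42 times the 75th percentile on the challenged arrays labelled Pla2g3-/- and wild type, and to 44.5 and 5.49 times on the control arrays labelled Pla2g3-/- and wild type. All 14 of its genes were highest on the control array labelled Pla2g3-/-, where Pth was the second highest. For genotype without challenge 13 of the 14 were at least 2-fold higher, where 3.19% of all genes were. The median of the list was 3.77, while Pth was -2.11. In the other comparisons the list median had the sign of Pth. It was -0.58 for challenge in wild type, where Pth was -5.12. For challenge in cells labelled Pla2g3-/- it was -3.31, with 13 of 14 at least 2-fold lower, where 3.42% of all genes were and Pth was -1.46. For genotype under challenge it was 1.10, with 8 of 14 higher, where 3.84% of all genes were and Pth was 1.56. The B cell list summed to 2.37 and 2.06 times on the challenged arrays labelled Pla2g3-/- and wild type, and to 2.26 and 5.47 times on the control arrays labelled Pla2g3-/- and wild type. All 8 of its genes were highest on the wild-type control array, as was Pth, but the other 3 arrays lay close together. For challenge in wild type 6 of the 8 were at least 2-fold lower, with a median of -1.33, and for genotype without challenge 6 of 8, with a median of -1.30. Of all genes 1.68% and 1.8% were lower in these comparisons. Under challenge the B cell median for genotype was 0.13, where Pth was 1.56.

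Of the 6 pan leukocyte genes, 5 were lowest on the challenged wild-type array, as was Pth. The list summed to 19.2 and 9.23 times the 75th percentile on the challenged arrays labelled Pla2g3-/- and wild type, and to 23.1 and 13.8 times on the control arrays labelled Pla2g3-/- and wild type. Of the 10 adipose genes 8 were also lowest there, 2 of them (Adipoq and Lep) not well above background on that array. For challenge in wild type 2 of the 8 with a value were at least 2-fold lower, where 1.68% of all genes were. These were Cfd at -1.59 and Car3 at -1.57, and the median was -0.54. The list summed to 1.37 and 0.96 times on the challenged arrays labelled Pla2g3-/- and wild type, and to 1.08 and 1.02 times on the control arrays labelled Pla2g3-/- and wild type. Thymic epithelial genes were examined because the thymus can make parathyroid hormone. The sum of their list is carried by Krt5, a keratin that airway basal cells also make. Without Krt5 the other 10 genes summed to 1.86 and 2.06 times on the challenged arrays labelled Pla2g3-/- and wild type, and to 1.99 and 1.81 times on the control arrays labelled Pla2g3-/- and wild type. Of the 11 genes, 4 (Foxn1, Prss16, Ccl25 and Pax1) were highest on the control array labelled Pla2g3-/-, the array on which all 14 thymocyte genes were highest. Another 4 (Psmb11, Aire, Ly75 and Krt14) were highest on the challenged array labelled Pla2g3-/-. The wild-type control array was highest for 2 and the challenged wild-type array for 1. Foxn1, the factor that defines thymic epithelium, read from 10.4 to 45.5 units and was not well above background on the challenged array labelled Pla2g3-/-. For genotype without challenge 2 of 11 were at least 2-fold higher, where 3.19% of all genes were. These were Foxn1 at 2.01 and Pax1 at 1.05, where Pth was -2.11. For challenge in cells labelled Pla2g3-/- 3 were at least 2-fold lower and 1 higher, where 3.42% and 3.87% of all genes were. The lower were Foxn1 at -2.13 or lower, Prss16 at -1.18 and Pax1 at -1.07, where Pth was -1.46. The higher was Krt14, a keratin of basal epithelial cells, at 1.43. For challenge in wild type Foxn1 was at 1.86 and Psmb11, a thymic proteasome subunit, at -1.94 or lower, and for genotype under challenge Foxn1 was at -1.98 or lower and Psmb11 at 2.53 or higher. The list medians were 0.03, -0.20, 0.25 and -0.25 for challenge in wild type, challenge in cells labelled Pla2g3-/-, genotype without challenge and genotype under challenge.

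The airway list summed to 514 and 594 times on the challenged arrays labelled Pla2g3-/- and wild type, and to 585 and 589 times on the control arrays labelled Pla2g3-/- and wild type. In pooled bulk RNA, fewer cells of a type and less RNA per cell cannot be told apart. The part of carried-over gland, thymus or lymphoid tissue in the Pth differences was not tested.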

How the data were processed

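The authors deposited intensity values per spot of 4 single-colour (Cy3) Agilent arrays, made with version 11.5.1.1 of Agilent's Feature Extraction software per the file headers, from 200 ng RNA per labelling, per the labels. The deposited series matrix also holds intensity values; set against the scanner values it equals the processed signal divided by the array's 75th percentile, so scale, centring and direction are known, and its column medians were 0.0850, 0.0860, 0.0879 and 0.0875 (challenged labelled Pla2g3-/-, challenged wild type, control labelled Pla2g3-/-, control wild type). Here log2 processed signal minus the array's 75th percentile over non-control spots was used, with outlier spots left out (128 to 155 per array), no spot saturated, and spots of a probe averaged. Other genes were represented by the brightest probe, with symbols updated through RefSeq (GRCm38.p6 table, names only) for 28330 probes, while 11099 kept the file's name and 2462 have none. All arrays lie on 1 slide, with 1 group at each position, and the effects of position and group cannot be told apart. A probe not well above background on 1 array of a pair gives a bound against the lowest level well above background, and on both gives no value. A log2 difference of at least 1 (2-fold) is called.

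Groups came from the labels. The members and the 20 other gene lists were chosen with earlier results of these data known. Named genes are all members, list genes at least 2-fold different, the brightest of a list, and the 10 genes nearest to Pth. A list gene and a gene near Tg are not reported here and were left out of the lists and rankings. Alternatives were normexp (offset 50), quantile normalisation, the matrix, a filter on all 4 arrays, and the mean of probes. List sums without their brightest or airway genes, the array order under other settings and likeness to Tg were added after seeing the data. Precision is limited by the number of arrays. The computation was tested on simulated data and run in Python 3.11.15 with pandas 2.3.3 and in R 4.3.3 with limma 3.58.1.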

Additional observations from a re-analysis of the deposited data

Results flagged for a closer look

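For 3 genes the array labelled Pla2g3-/- lay below wild type without challenge and above it under challenge. The genotype difference of Pth was 1.56 under challenge and -2.11 without it, 3.67 apart on the log2 scale. For Tg it was 1.26 and -0.32, which is 1.58 apart. For Chga, the chromogranin of endocrine granules, it was 0.78 and -0.66, which is 1.43 apart. Duoxa2, the oxidase maturation factor, had opposite challenge differences, at 0.25 in cells labelled Pla2g3-/- and -0.76 in wild type, 1.01 apart. It read only 15.4 to 44.4 units, below a log2 level of -5 on every array. The 95th percentile SD of a single difference was 1.06 at such levels. With 1 array per group these differences were not tested.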

How the results depend on the processing

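With quantile normalisation the 24 member differences measured on both arrays moved by at most 0.09 on the log2 scale, within their scanner errors. The deposited matrix, the mean of the probes of a gene and the filter on all 4 arrays could hardly move them. The matrix holds the same signal on the same scale, and each member with a value has 1 probe. The filter only drops probes and left 20 differences as they were. These settings are therefore no check of the member differences. Normexp moved 11 of the 24 beyond their scanner error, by at most 1.29, and took the Slc5a5 bound for challenge in cells labelled Pla2g3-/- to 0.15, under 2-fold. With it, Pth was -4.00 for wild-type challenge, and the challenge difference in cells labelled Pla2g3-/- was -1.19. Its genotype difference under challenge was 0.85, no longer 2-fold, and its challenge differences lay 2.81 apart. Tg stayed past 2-fold throughout for challenge in wild type and for genotype under challenge. Normexp adds an offset that shrinks differences of dim probes, such as Pth on the challenged wild-type array.

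Probes at least 2-fold higher and lower numbered 584 and 524 for challenge in wild type, against 152 and 64 with normexp and 316 and 272 with the filter on all arrays. For challenge in cells labelled Pla2g3-/- they numbered 1183 and 1033, against 451 and 376 with normexp and 787 higher with the filter. For genotype without challenge they numbered 1016 and 598, against 437 and 121 with normexp and 343 lower with the filter. For genotype under challenge they numbered 1198 and 792, against 358 and 183 with normexp and 771 and 495 with the filter. Of 88 list medians, 37 moved with normexp, 14 with the filter, 14 with the mean of probes, 2 with quantile normalisation and 0 with the matrix. No paired analysis was possible because each group has 1 array. For the same reason no replicate could be left out, and the arrays share 1 slide. Signal near background limits Gcm2, Casr, Slc5a5 and Iyd among the members, and list genes such as Duoxa2, Slc26a7, Pth1r, Tnfsf11, Grp, Foxn1 and Psmb11.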

Other observations

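The genes nearest to Tg were looked at after its values were seen. Among the 16438 genes well above background on all arrays whose symbol is not a clone or prediction name, the 10 nearest were Angptl4, Slc28a2b, Adgre4, Slc5a11, Cfd, Cdh16, Serpinf2, Mrc2, H2-Ob and Rspo3, at root mean square differences of 0.18 to 0.34, where a flat profile gives 0.77. Cdh16 was the sixth at 0.30. Angptl4 encodes an inhibitor of lipoprotein lipase and Cfd a complement factor made by fat cells, so the neighbours of Tg are not all thyroid genes.

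Among genes through which thyroid hormone acts, 12 had a value, and Thrb, a thyroid hormone receptor, was the only one called. The arrays labelled Pla2g3-/- differed from wild type by -1.09 under challenge and -1.03 without it, and no gene of the list was called for challenge in either genotype. Of 11 calcium and vitamin D genes with a value, Tnfsf11, the RANK ligand that drives osteoclasts, was higher on the arrays labelled Pla2g3-/- than wild type by 1.97 under challenge and 1.09 without it. Tnfrsf11b, its decoy receptor, was higher by 1.73 for challenge in cells labelled Pla2g3-/- and by 1.04 for genotype under challenge. Of the 5 genes of the thyrotropin axis 2 had a value and none was called. Since from 1.68% to 3.87% of all genes were called per direction and comparison, nothing is read from the counts of these lists.

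The lists for skeletal muscle, oesophagus, cartilage, heart, pulmonary neuroendocrine cells, nerve and other endocrine glands had medians from -0.23 to 0.27 for challenge in wild type, from -0.19 to 0.41 for challenge in cells labelled Pla2g3-/-, from -0.18 to 0.56 for genotype without challenge and from -0.17 to 0.57 for genotype under challenge.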
